A study of Mus musculus with 8 samples.

Results

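Ribosome biogenesis is the assembly of new ribosomes in the nucleolus, and its genes were followed here in mouse quadriceps, a large locomotor muscle of the thigh. The set held 46 genes, chosen by name for their known roles but with earlier results of these data known, and 43 of them could be tested among 13257 genes. RNA polymerase I copies the ribosomal DNA into a long precursor RNA. Small nucleolar ribonucleoproteins modify that precursor, and a succession of assembly factors cuts it, folds it and joins it to ribosomal proteins until the small (40S) and large (60S) subunits leave the nucleus. In skeletal muscle this pathway is known to be regulated with load and growth, and it is a known target of the Myc transcription factor.

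Adult male C57Bl/10 mice were studied in 2 groups of 4 quadriceps samples, each on 1 Affymetrix mouse array that reads transcripts with sets of short oligonucleotide probes. Control mice stayed under room conditions for the 2 weeks. Hypoxia mice were kept in a sealed chamber in which oxygen fell from 21% to 8% over 1 week and was then held at 8% for 7 days. Only the hypoxia mice are described as housed in the chamber, so chamber and oxygen effects cannot be told apart. Nothing in the labels beyond the naming of each quadriceps says that samples came from separate animals, so p-values measure the spread between these samples. Values are signals of a gene's brightest probe set, given as mean ± SD (n = 4 per group). Changes are log2 differences, hypoxia minus control, of the signal plus 16, with the standard error (SE) of the limma fit, folds are the same changes on a linear scale, and "rose" means a change above 0 with an adjusted p under 0.05.

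The defining genes of muscle fibres were bright on every array, with summed signals of 425700 to 506002 in control and 276569 to 391673 in hypoxia, and 7 of 9 of them were lower in hypoxia. Array hypoxia 1 stood apart: its 3' to 5' signal ratio for the Gapdh control probe sets, which is higher when RNA is broken or incompletely copied, was 3.44, against 0.776 to 0.874 on the other 7 arrays. For beta-actin it stood at 2.53 there, at 1.40 to 1.59 on hypoxia 2 to 4 and at 1.09 to 1.25 in control, although the labels describe all RNA as having met an integrity criterion. The part of RNA quality in the results was not tested, and values without hypoxia 1 are given where its omission changed a call or the sign of a change, or moved a change by over 1.5 times.

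Most tested genes of the chosen set had positive changes after hypoxia, and none of the 43 was called lower. Falls were found among other genes of the pathway, given further below. Of the 43 tested genes 24 rose (55.8%), where 14.8% of all tested genes were called higher and 18.8% lower. A further 14 had positive changes and 5 had negative ones that missed the threshold. The median change over the 43 was 0.71, beside -0.04 over all genes. At least 2-fold rises were found for 12 of the 43 (27.9%, against 5.91% of all genes), and an at least 2-fold fall for 0, against 8.91%. In 22 genes (51.2%, against 14.8% of all genes) every hypoxia array lay above every control array, and 0 had the reverse, where 33.4% of all genes were apart in either direction. The largest rises were those of Gtpbp4 (3.82-fold), Gnl3 (3.73-fold), Tsr1 (3.49-fold) and Wdr43 (3.05-fold). Without hypoxia 1, 23 genes rose and 0 fell.

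The shift was present on each hypoxia array. The median of the 43 genes, taken relative to each gene's control mean, was 0.68, 0.73, 0.65 and 0.54 on hypoxia 1 to 4, and between -0.06 and 0.10 on the control arrays. On the hypoxia arrays 28 to 34 of the 43 genes exceeded all 4 control values. These per-array values were not taken over all genes, so they do not show whether the shift is particular to these genes.

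**Figure D1:**
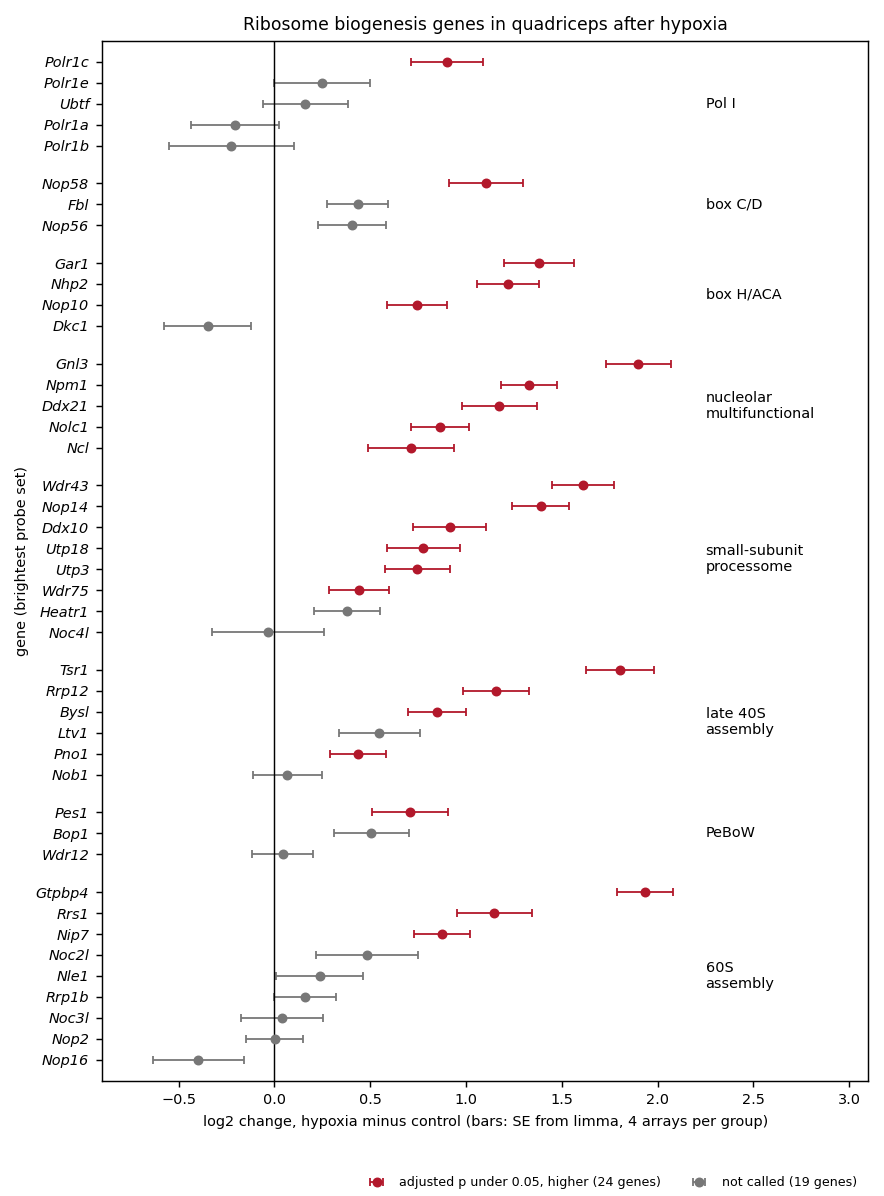
Log2 change (hypoxia minus control, points) with the SE of the limma fit (bars) for the 43 tested genes, 4 arrays per group, grouped by role. The 24 called genes (red) all lie to the right of 0 and spread over every role, while the 19 not called (grey) lie between -0.40 and 0.55.

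Transcription of ribosomal DNA opens the pathway. Of 5 tested genes of the RNA polymerase I apparatus 1 rose (20%, near the 14.8% of all genes) and 0 fell. Polr1c encodes a subunit shared by RNA polymerases I and III. Its signals were 677, 883, 1175 and 1129 on control 1 to 4 and 2039, 1799.7, 1489 and 1819 on hypoxia 1 to 4. All hypoxia values lay above all control values, a rise of 0.90 ± 0.19 (adjusted p = 0.00259), and its other probe set rose by 0.73. Polr1a and Polr1b, the catalytic core of the enzyme, changed by -0.21 ± 0.23 and -0.22 ± 0.33. Polr1b read 101 on hypoxia 1, against 213 to 352 on hypoxia 2 to 4 and 204 to 327 in the control group. Without hypoxia 1 the changes were 0.01 for Polr1a and 0.12 for Polr1b, neither of which passed. Polr1e, a further subunit, and Ubtf, the factor that holds ribosomal DNA open for the polymerase, changed by 0.25 and 0.16 with overlapping groups.

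The particles that modify the precursor RNA followed, and on the brightest probe sets the H/ACA class held more calls than the C/D class. Box C/D particles add methyl groups. Nop58, a core protein of these particles, read 250, 324, 196 and 244 in control and 457, 660, 520 and 606 in hypoxia. The groups were apart, and Nop58 rose 2.15-fold (SE 0.19 on the log2 scale, adjusted p = 0.000801). Its partner Nop56 and the methyltransferase Fbl changed by 0.41 and 0.44 and did not pass (adjusted p = 0.102 and 0.0514), although a second, dimmer probe set of Nop56 rose by 0.58 when probe sets were tested singly. Without hypoxia 1, where it read 1897, the change of Nop56 was 0.24. Fbl passed after quantile normalization, at 0.52, and after median centring, at 0.52. As means of their probe sets Nop56 (0.49) and Fbl (0.43) both passed. The difference in calls between the classes therefore depends on the probe-set choice.

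Box H/ACA particles convert uridine to pseudouridine, and 3 of their 4 core genes rose (75%, against 14.8% of all genes). Nhp2 read 1774, 2076, 2087 and 1874 in control and 4347, 6017, 4437 and 3719 in hypoxia. The lowest hypoxia value stood well above the highest control value, and Nhp2 rose by 1.22 ± 0.16 (adjusted p = 9.01e-05). Gar1 read 399, 643, 628 and 485 in control and 1500.0, 1489, 1512 and 1150.2 in hypoxia, a rise of 1.38 ± 0.18 (adjusted p = 9.41e-05). Here too the groups were far apart, with hypoxia 4 the lowest of its group. Nop10, the smallest of the 4 proteins, rose by 0.74, and its other probe set rose by 1.17.

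Dkc1, the pseudouridine synthase itself, was uncertain. Its brightest probe set changed by -0.35 ± 0.23 (adjusted p = 0.268), from 1019 ± 296 to 784 ± 156, with control values from 662 to 1332. Its other probe sets pointed the other way and rose by 0.46 and 0.54 when probe sets were tested singly. The average over the gene's probe sets was 0.22 and did not pass. Without hypoxia 1 the brightest probe set stood at -0.19.

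All 5 tested genes of the multifunctional nucleolar proteins rose, against 14.8% of all genes. Gnl3, which encodes the nucleolar GTP-binding protein nucleostemin, read 1740.1, 1671, 1756 and 1967 in control and 9360, 6662, 6028 and 5323 in hypoxia. The control values were tight and the hypoxia values wide but clear of them, a rise of 1.90 ± 0.17 (adjusted p = 4.79e-06). Npm1 encodes nucleophosmin, an abundant nucleolar chaperone of ribosome assembly, and read 5012, 7267, 6797 and 6080.3 in control. On hypoxia 1 to 4 it read 16296, 17241, 14124 and 15205. Even the lowest hypoxia value was clear of control, and Npm1 rose by 1.33 ± 0.15 (adjusted p = 2.21e-05), and its other probe set rose by 1.29. Ddx21, an RNA helicase that acts in precursor transcription and processing, read 915, 860.4, 1111 and 1278 in control and 3023, 2721, 2029 and 1794 in hypoxia. The groups did not overlap, and Ddx21 rose by 1.17 ± 0.19 (adjusted p = 0.000512), with its other probe set at 0.99.

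The other two rises in this group were less certain. Ncl encodes nucleolin, a major RNA-binding protein of the nucleolus, and read 3945 to 4501 in control but 4001 on hypoxia 1 and 7156 to 9572 on hypoxia 2 to 4. It rose by 0.71 ± 0.22 with overlapping groups, and by 0.98 without hypoxia 1. Of its 3 other probe sets 1 rose by 0.67, 1 changed by 0.47 without passing and 1 fell by 0.92, so the change of Ncl is uncertain. It passed neither after quantile normalization, at 0.62, nor as the mean of its probe sets, at 0.23. Nolc1, a chaperone of small nucleolar particles, rose by 0.87 ± 0.15 without overlap, while its other probe sets changed by -0.10 and 0.69 and did not pass, nor did their mean with the brightest, at 0.49.

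**Figure D2:**
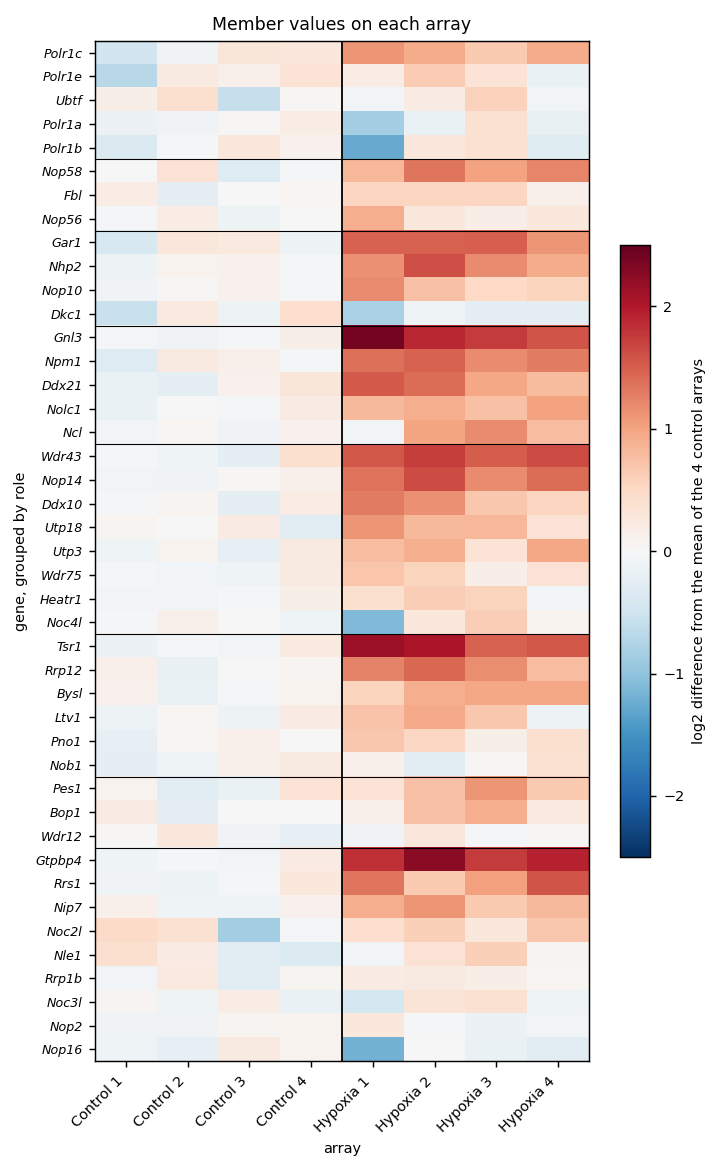
Log2 difference of each gene from the mean of the 4 control arrays (colour scale), for 43 genes (rows, by role) on 8 arrays (columns, control left of the line). Red fills most of the 4 hypoxia columns, and the bluest cells are those of Polr1b, Nop16 and Noc4l on hypoxia 1.

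The small-subunit processome is the large complex that forms on the 5' part of the precursor RNA and starts its cleavage. Of its 8 tested genes 6 rose (75%, against 14.8% of all genes). Wdr43 encodes a subunit that joins the complex early. It read 909, 881, 794 and 1249.5 in control and 2807, 3174, 2732 and 2971 in hypoxia. Both groups were compact, and Wdr43 rose by 1.61 ± 0.16 (adjusted p = 1.01e-05), with its other probe set at 1.39. Nop14, an assembly factor of the complex, read 482, 481, 519 and 561 in control and 1323, 1606, 1181 and 1371 in hypoxia. It showed no overlap either and rose by 1.39 ± 0.15 (adjusted p = 1.87e-05). The helicase Ddx10 rose by 0.91 and the subunits Utp18 and Utp3 by 0.78 and 0.75, all 3 without overlap, although the other probe set of Ddx10 changed by 0.30 and did not pass. Wdr75, a partner of Wdr43, rose by 0.44 (adjusted p = 0.0468) with overlapping groups, and missed the threshold without hypoxia 1, at 0.36. The large scaffold Heatr1 changed by 0.38 (adjusted p = 0.113). Noc4l, a factor of small-subunit maturation, changed by -0.03, with 288 on hypoxia 1 against 672 to 988 on the other hypoxia arrays. Without that array it stood at 0.32 and did not pass.

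Factors that act on the small subunit after the processome comes apart were mostly higher. Of these 6 genes 4 rose (66.7%, against 14.8% of all genes). Tsr1 encodes a GTPase-like factor that blocks early translation by the immature subunit. It read 1186, 1284, 1243 and 1563 in control and 5840.4, 5470.2, 3657 and 3889 in hypoxia. The lowest hypoxia value was far above the highest control value, and Tsr1 rose by 1.80 ± 0.18 (adjusted p = 9.95e-06). Its other probe set rose by 0.95, so the size of the rise is uncertain. Rrp12, a factor of subunit maturation and export, read 422, 336, 389 and 405 in control and 941, 1076, 889 and 670.1 in hypoxia. It was higher on every hypoxia array and rose by 1.16 ± 0.17 (adjusted p = 0.000252). Bysl, a binding partner of late precursors, rose by 0.85 and Pno1, which holds the 3' end of the small-subunit RNA, by 0.44. Pno1 stood apart from control on every hypoxia array but by little, since its lowest hypoxia signal was 4540.4 and its highest control signal 4483, and without hypoxia 1 its change was 0.36 (adjusted p = 0.0671). Nob1, the endonuclease that makes the last cut in that RNA, changed by 0.07 with overlapping groups. The export adaptor Ltv1 changed by 0.55 (adjusted p = 0.061), with 2218 to 2672 on hypoxia 1 to 3 and 1268.5 on hypoxia 4.

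Large-subunit genes were divided. The PeBoW complex, made of Pes1, Bop1 and Wdr12, is needed to process the RNA of the large subunit. Of its 3 genes 1 rose (33.3%, against 14.8% of all genes). Pes1 read 428, 332, 357 and 510.5 in control and 511, 676, 881 and 645 in hypoxia. The groups touched without overlapping, and Pes1 rose by 0.71 ± 0.20 (adjusted p = 0.0147). Bop1 changed by 0.51 ± 0.20 (adjusted p = 0.0645) and passed without hypoxia 1, at 0.63. Wdr12 changed by 0.04 ± 0.16, from 807 ± 117 to 831 ± 104, and by 0.09 without hypoxia 1.

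Of 9 further tested genes of 60S assembly 3 rose (33.3%, against 14.8% of all genes). Gtpbp4, a nucleolar GTPase of early 60S particles, read 1709.6, 1787, 1757 and 2117 in control and 6523, 8789, 6225 and 6984 in hypoxia. Its groups were the farthest apart in log2 change among the 43, at 1.93 ± 0.15 (adjusted p = 1.18e-06), and its other probe sets rose by 2.18 and 1.17. Rrs1, which brings the 5S particle to the large subunit, rose by 1.15, with 0.63 and no call on its other probe set. Nip7, a factor of precursor processing, rose by 0.87, with 1.13 on its other probe set.

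The remaining 6 large-subunit genes did not pass. Nop2, a cytosine methyltransferase of the large-subunit RNA, read 860 to 977 in control and 823 to 1102 in hypoxia, a change of 0.00 ± 0.15, and of -0.09 without hypoxia 1. Nop16 changed by -0.40 ± 0.24, the lowest value of all 43, and by -0.14 without hypoxia 1, where it read 300.1 against 576 to 704 on the other hypoxia arrays. Rrp1b, Noc2l and Nle1, assembly factors of 60S particles, changed by 0.16, 0.48 and 0.24. Noc3l changed by 0.04 on its brightest probe set, and by 0.20 without hypoxia 1, while a dimmer one rose by 0.90.

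**Figure D3:**
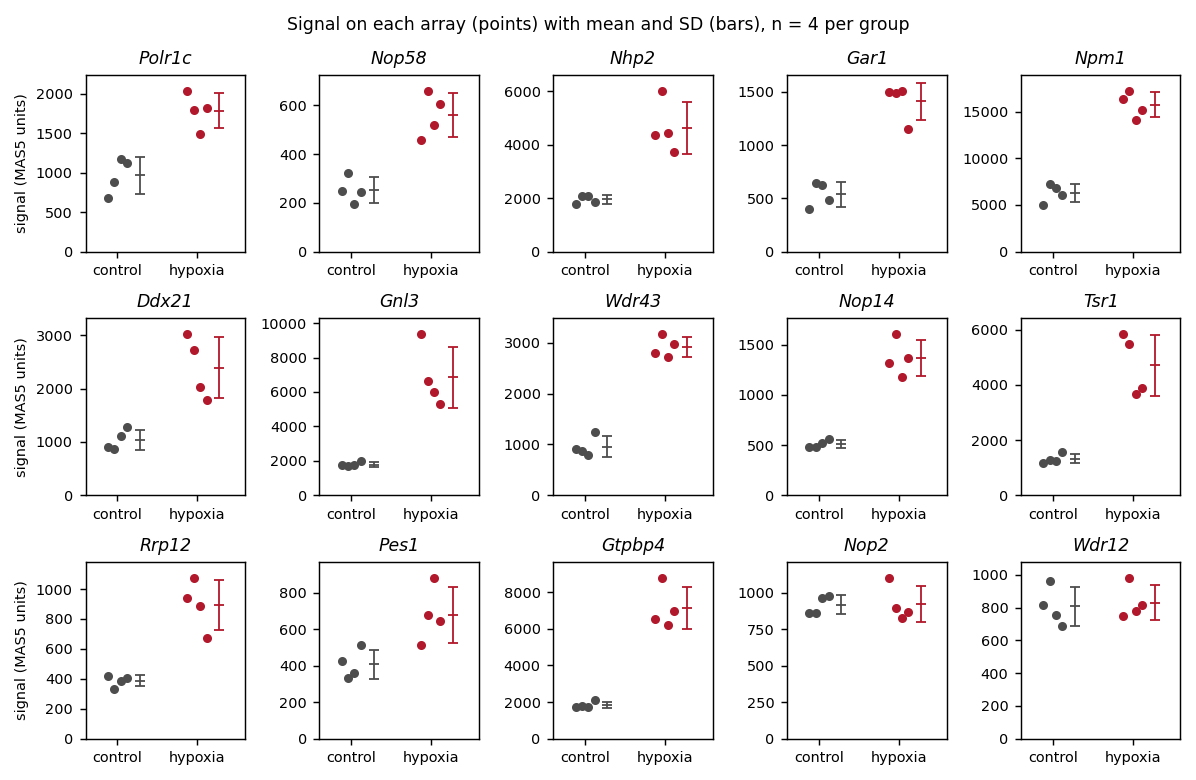
Signals of 15 genes on each of the 4 control (grey) and 4 hypoxia (red) arrays, with mean and SD beside the points; each axis starts at 0. In 13 panels every hypoxia point lies above every control point, and in Nop2 and Wdr12 the points overlap. The panels were picked mainly from called genes without overlap, so this count was set by the choice. Of the 43 genes 22 were so separated (51.2%, against 14.8% of all genes).

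Among the 19 genes not called, hypoxia 1 was the lowest hypoxia array for 10, and among the 24 called genes for 4. It was the highest hypoxia array for 9 of the called genes and for 2 of the others. Hypoxia 3 was the lowest for 12 of the called genes. Relative to the control mean, the median of the genes not called was 0.13, 0.27, 0.39 and -0.06 on hypoxia 1 to 4. Calls were made from these same values, and a low value on a single hypoxia array makes a call of higher less likely. These splits by call are therefore partly built in, and they were not counted over all genes. The position of each probe set along its transcript was not used here.

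The set's 3 remaining genes were not tested. Mrto4, an assembly factor of the 60S stalk, was read only by a probe set that also matches its pseudogenes, at 1074 ± 78.0 in control and 1799.5 ± 257 in hypoxia. Rrp9, a protein of the U3 particle, had a single probe set, which lay below the signal filter, at 64.5 ± 61.1 in control and 51.5 ± 42.7 in hypoxia. Npm3, a relative of Npm1, had no named probe set.

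Other probe sets of a gene mostly gave the same direction where the gene was called, and were mixed where it was not. Some genes not called changed by close to 0, such as Noc4l (-0.03), Noc3l (0.04) and Wdr12 (0.04), where a sign says little. Agreement over all genes was not counted. Among the 24 called genes 15 had other probe sets past the filter, 19 in all. Of these 17 had the same sign, 12 of them also passing when tested singly, and 2 the opposite sign, 1 each in Ncl and Nolc1. Of the 17 other probe sets of genes not called, 8 had the same sign as the brightest and 9 the opposite one, and 4 passed, all rising: both of Dkc1 and 1 each of Nop56 and Noc3l. For 9 of the 43 genes, 6 of them called, the name of the brightest probe set marks it as matching further transcripts.

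**Figure D4:**
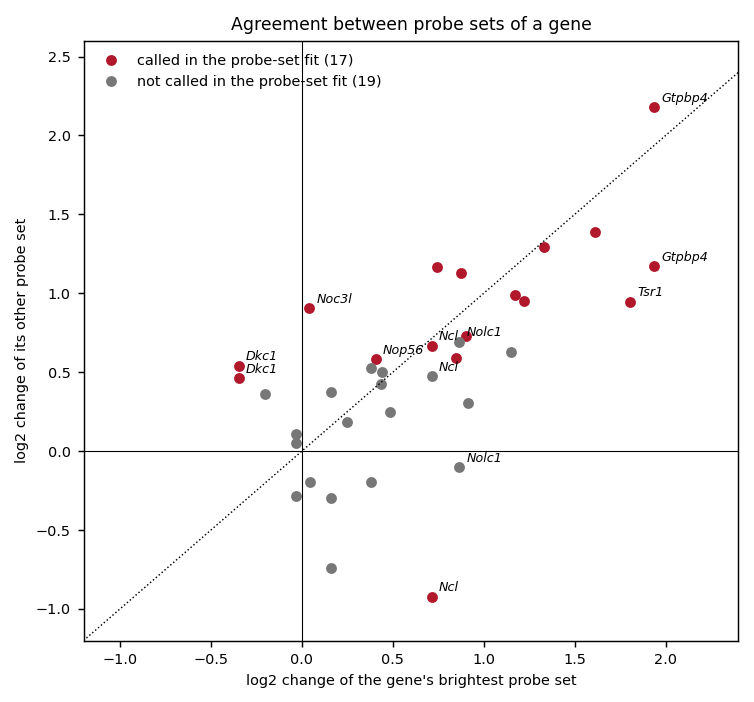
Log2 change of each other probe set past the filter (vertical axis, 36 in all) against that of the gene's brightest probe set (horizontal axis), red where it passed when probe sets were tested singly. The dotted line marks equality, and the red points whose sign opposes that of the brightest probe set belong to Ncl (1) and Dkc1 (2).

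Genes that rose together were also compared in their promoters. RefSeq windows of 300 bases (250 before and 50 after a start site, GRCm38.p6) matched 41 of the 46 genes. The E-box CACGTG, which reads the same on both strands and is known to be bound by Myc with Max, stood in a window of 8 of the 41 (19.5%), against 8.09% of all genes with a window and 11.3% of the tested genes. Among genes that rose it was found in 5 of 21, and among those not called in 3 of 17. These sites are shown because they let genes that rose and genes not called be set side by side, with the E-box in capitals. Those of the risen genes were:

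Wdr43 (chr17:71616220-71616249, + strand): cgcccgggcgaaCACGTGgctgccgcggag
Tsr1 (chr11:74898092-74898121, + strand): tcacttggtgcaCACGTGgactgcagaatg
Utp18 (chr11:93885769-93885798, - strand): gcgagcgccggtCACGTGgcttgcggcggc
Pes1 (chr11:3963965-3963994, + strand): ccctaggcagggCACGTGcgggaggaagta
Pno1 (chr11:17211540-17211564, - strand): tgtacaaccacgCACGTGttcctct

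Those of genes not called were:

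Ltv1 (chr10:13193092-13193121, - strand): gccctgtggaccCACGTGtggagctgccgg
Nop2 (chr6:125131811-125131840, + strand): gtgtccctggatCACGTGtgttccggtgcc
Nle1 (chr11:82908355-82908384, - strand): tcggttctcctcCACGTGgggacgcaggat

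The Utp18 and Nop2 sites began 20 and 60 bases upstream of the start site, and the other 6 lay 2 to 37 bases downstream of it. Gtpbp4 and Gnl3, with the largest rises, had no E-box in their windows. The core ACGTG of hypoxia response elements, searched on both strands and contained in every E-box, stood in 14 of 41 genes (34.1%, against 28.2% of tested genes). The core CCGGAAG bound by ETS factors, searched on both strands, stood in 15 of 41 (36.6%, against 17.9% of tested genes), in 9 of 21 that rose and in 6 of 17 not called. Of the pseudouridylation genes that rose, Nhp2 and Gar1 held this core and Nop10 did not. Examples are shown from Nhp2, Gar1 and Tsr1, all of which rose, with the core or its reverse complement in capitals:

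Nhp2 (chr11:51619738-51619767, + strand): ccacttgaaaacCCGGAAGtgatgtcggag
Gar1 (chr3:129831422-129831451, - strand): cgcgccgccacaCTTCCGGaaacgtcgcgt
Tsr1 (chr11:74898067-74898096, + strand): gctcgggtccgcCCGGAAGtagagttcact

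A TATA box, TATAAA on either strand, stood in 2 of 41 (4.88%, against 10.1% of tested genes). These matches describe letters in a window and not binding.

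Other genes of the pathway, in lists of 146 genes of which 140 were tested, gave the following counts. Of the 140, 51 rose (36.4%) and 6 fell (4.29%), with a median change of 0.30. Without hypoxia 1 the numbers were 56 and 5. Over all genes 14.8% were called higher and 18.8% lower, with a median of -0.04. The 140 include 11 transcriptional regulators, treated last. Leaving these out, 47 of 129 rose (36.4%) and 6 fell (4.65%), with a median of 0.32. In the processome list 14 of 34 rose and 1 fell. Among these rises, Utp6 (1.02) and Krr1 (0.59) each had another probe set that fell, at -0.90 and -0.70, so their direction is uncertain. Utp11, a subunit, rose 2.68-fold from 1669.6 ± 148 to 4562 ± 906, and its other probe set changed by 0.11 without passing. Dcaf13, another subunit, rose 2.17-fold, and Esf1 fell by 0.62, with other probe sets at -0.52 and 0.12 that did not pass.

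Among other 60S factors 19 of 42 rose (45.2%, against 14.8% of all genes) and 2 fell (4.76%, against 18.8%). Eif6, which keeps the new large subunit from joining the small one too early, rose 3.18-fold from 1326 ± 146 to 4288 ± 832. Mak16, an early assembly factor, rose 2.64-fold. The falls were those of Znhit3, by 0.78, and Pelp1, by 0.47. Of 10 late 40S factors 3 rose (30%) and 1 fell (10%). The kinases Riok2 and Riok3 rose 3.09-fold and 2.03-fold, each with all other probe sets rising too, and the methyltransferase gene Bud23 fell by 0.46. The third rise was that of Lsm6, by 0.57, but another of its probe sets fell by 0.81, so its direction is uncertain.

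Of 14 nucleolar helicases 5 rose (35.7%, against 14.8% of all genes) and 0 fell. The rises were led by Ddx27 (1.13, with 0.07 and no call on its other probe set) and Ddx52 (1.08). Of 15 genes of the exosome and precursor trimming 2 rose and 2 fell, close to the shares of all genes. The nuclease Dis3 rose by 1.43 and the exosome subunit Exosc1 by 1.03, the latter with 0.17 and 0.25 and no call on its other probe sets. The subunits Exosc7 and Exosc3 fell by 0.66 and 0.64. Of 14 other genes of polymerase I and its factors 4 rose (28.6%) and 0 fell. Taf1d, a subunit of the promoter selectivity factor, rose by 3.72 on its brightest probe set, but its other 4 gave 0.24 to 1.97, so the size is uncertain. Polr1d, the partner of Polr1c, rose by 0.60, and all 3 of its other probe sets rose.

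**Figure D5:**
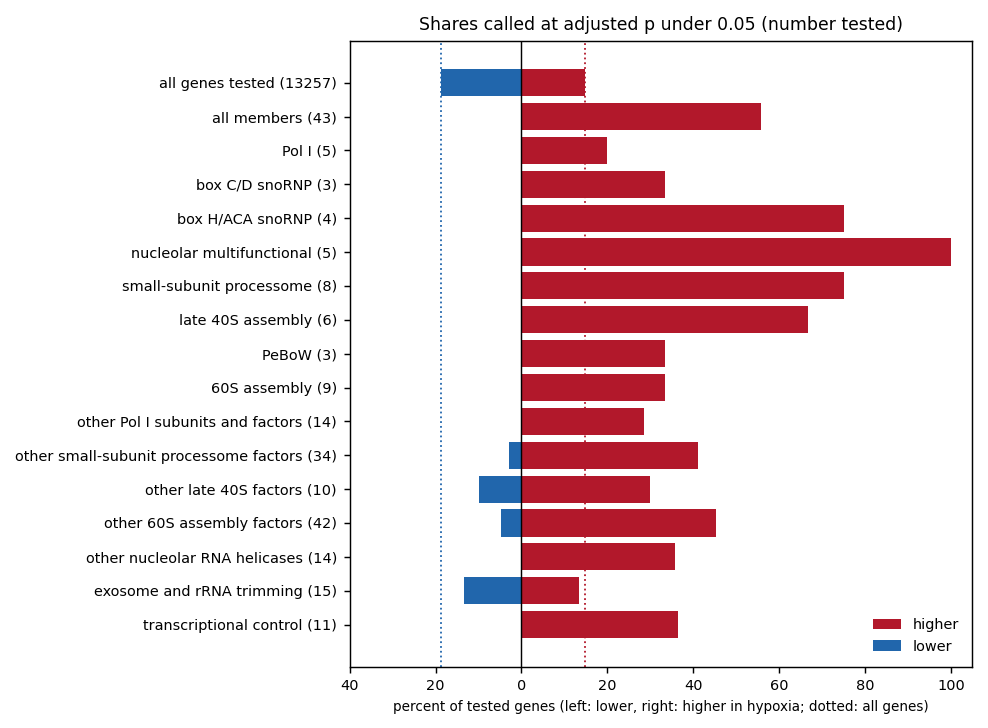
Percent of tested genes called higher (red, right) or lower (blue, left) in hypoxia, for all genes, the members, their role groups and the other pathway lists, with the number tested in brackets; dotted lines mark all genes (14.8% and 18.8%). The members reach 55.8% higher and 0% lower, and the exosome list stays near the dotted lines.

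In the list of transcriptional regulators 4 of 11 rose (36.4%, against 14.8% of all genes) and 0 fell. Myc, which activates many ribosome assembly genes, rose 7.56-fold from 106 ± 55.4 to 904 ± 474 (log2 change 2.92 ± 0.39, adjusted p = 9.54e-05). Its control mean lay just above the filter signal of 90.2, so the fold depends on a control value near background. The pocket protein gene Rb1, a repressor of polymerase I transcription, rose 4.55-fold from 902 ± 70.6 to 4200.3 ± 738. Mdm2, which restrains p53, rose by 1.05, with 0.19 and no call on its other probe set, and Mxi1, which competes with Myc for Max, rose by 0.58, with 0.14 and no call on its other probe set.

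In bulk muscle, a change in the number of cells of a type and a change in RNA per cell cannot be told apart. Proliferation markers had summed signals of 5781 to 6559 in control and 10958 to 14086 in hypoxia, with 3 of 11 tested genes higher: Rrm2 (5.22), Mcm7 (1.21) and Pcna (0.61). Rrm2 read 78.4 ± 50.5 in control, below the filter signal of 90.2, and passed the filter through its hypoxia level of 3244 ± 879, so its change depends on a control value near background. Without Rrm2 the sums were 5716 to 6526 and 8413 to 9839. These still hold Pcna, at 3540 ± 417 and 5402 ± 367, and Mcm7, at 623 ± 117 and 1470 ± 329. They therefore do not show a rise of the list as a whole. The other 8 tested markers, Mki67 and Top2a among them, were not called, and Cdk1, Aurkb and Bub1 lay below the filter. The 10 macrophage markers overlapped in sum, at 10433 to 15287 in control and 9622 to 16946 in hypoxia, with Cd68 higher (3.93) and Adgre1 and Csf1r lower (-0.85 and -0.88). These sums include the rise of Cd68 from 289 ± 80.7 to 4562 ± 804, while 7 of the 10 changes were negative and 3 positive. Their overlap therefore does not show an unchanged macrophage content. The 5 tested neutrophil markers summed to 525 to 943 in control and 2984 to 5430 in hypoxia, through S100a8 (3.25) and S100a9 (3.94). S100a9 was also below the filter signal in control at 49.6 ± 23.2, and Mpo lay below the filter. The other 3 tested neutrophil markers were not called, at -0.11 to 0.54. Satellite cell and myoblast markers overlapped, at 2298 to 3165 and 1691 to 3253, with Pax7 below the filter and Myod1 lower (-1.66). All 7 fibroblast markers fell, led by Lum (-3.67) and Col3a1 (-3.65), from sums of 47813 to 55043 to 14247 to 19264. All 3 tested adipocyte markers fell, led by Cidec (-2.44) and Adipoq (-2.02), with sums of 3033 to 18818 in control and 969 to 3671 in hypoxia. Endothelial sums overlapped, at 4564 to 7732 and 3631 to 6973, with Kdr lower (-0.95) among 7, and so did those of the 2 tested Schwann cell genes, at 3145 to 3850 and 2060 to 3842, neither of which was called. The single tested lymphocyte and erythroid genes were not called, with signals of 94.9 to 145 and 47.1 to 155 for the former and 438 to 1300.2 and 537 to 849 for the latter. The part of these cell types in the changes of the ribosome assembly genes was not tested.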

How the data were processed

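The deposited values are MAS5 signal intensities, 1 per probe set and array, named in the submitters' processing notes and made from cRNA primed at the poly(A) tail, per the labels' protocols. The MAS5 version and settings: not given in the sources used here. Each array's mean, trimmed by 2% at either end, was 500.0, and the authors' scaling was kept. No 2 arrays were identical. The number of arrays limits the precision.

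Of 45101 probe sets, 64 controls and then the 40% with the lowest mean were left out (filter at a signal of 90.2). A gene was represented by its brightest probe set paired with 1 symbol. Log2(signal + 16), which understates folds of dim genes, was fitted with limma 3.58.1 in R 4.3.3 (lmFit, eBayes with trend, two-sided), with Benjamini-Hochberg adjustment over 13257 genes at 0.05. Tested on simulated data in which 13057 of 13257 genes were unchanged, the procedure missed most of the modest changes and some of the large ones. Its pass criterion was relaxed after a first one on recovery was not met. In the real data 33.6% of genes were called, which makes the adjusted threshold less strict. The simulated recovery therefore does not measure the share missed here. A gene not called may still have changed. The members and lists were chosen with earlier results of these data known, so no list was tested. All members could be named, up to 2 called genes per direction of each other list, Myc, and up to 2 called genes of each cell type list; Lsm6, Mdm2, Mxi1, Pcna, Mki67, Top2a and Adgre1 complete counts and were named after their values were seen. Pairs of equal replicate number did not deviate together (correlations -0.07 to 0.00), so the block is an alternative only. Alternatives covered normalization, pseudocount, filter, probe-set choice, variance model, array weights and leaving out each array.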

Additional observations from a re-analysis of the deposited data

Results flagged for a closer look

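Among 86 groups of 4 values (43 genes in control and in hypoxia), 4 held an array far from the other 3 of its group, with a gap above Dixon's critical value, where chance gives about 1 in 20, so that about this many are expected by chance. Fbl read 887 on hypoxia 4, against 1177 to 1179.5 on the others. Gar1 read 1150.2 on hypoxia 4, against 1489 to 1512. Nop56 read 1897 on hypoxia 1, against 1129 to 1212, and Bysl 1122 on hypoxia 1, against 1437 to 1505.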

How the results depend on the processing

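In all 20 alternatives 21 to 26 members rose and 0 fell, and the members' median stayed above 0. Averaging probe sets per gene gave 0.51, and leaving out single arrays gave 0.56 to 0.70, lowest without hypoxia 3. The count of members that rose was 21 to 24 when arrays were left out. Other pathway genes numbered 47 to 56 higher and 3 to 10 lower without single arrays, with 10 lower without hypoxia 3 and 3 lower without control 4 or hypoxia 2. With all probe sets as units 3043 were higher and 4107 lower. Without single arrays 1610 to 1911 genes were higher and 2082 to 2580 lower. Dkc1 ranged from -0.54 to 0.53 without single arrays and rose without control 4 (0.53, adjusted p = 0.0280), where another of its probe sets was the brightest. Ncl missed the threshold without control 1, 2 or 3 or hypoxia 2, 3 or 4 (0.56 to 0.73), Wdr75 without control 1, 2 or 3 or hypoxia 1, 2 or 4 (0.36 to 0.47) and Pno1 without control 1, 2 or 4 or hypoxia 1, 2 or 4 (0.36 to 0.46). Fbl passed without control 1 (0.50) or hypoxia 4 (0.54), Bop1 without hypoxia 1 (0.63), and Heatr1 and Ltv1 without hypoxia 4. With the replicate number as a block 22 members rose, with Wdr75 and Pno1 lost, 48 other pathway genes were higher and 5 lower, and 1782 of all genes were higher and 2300 lower. The block changed no other member's call. Same-numbered arrays were not each other's closest (0 of 8). The share of higher among all called genes was 44.0% as deposited, 49.9% after quantile normalization and 50.7% after median centring. The calls lost in 1 or more alternatives were those of Ncl, Wdr75, Pno1 and Nolc1, and those gained were of Fbl, Bop1, Heatr1, Ltv1, Nop56 (as the mean of probe sets, 0.49) and Dkc1. Signal near background limits Rrp9.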
